A study of Mus musculus with 4 samples.

Results

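Mitosis and spindle genes encode the machinery that condenses, aligns and separates chromosomes, and 39 of them were followed here among the 38293 gene rows of each count file. They were chosen by name for their role in mitosis, with earlier results of these data known, and all 39 symbols matched a counted Ensembl gene. All 39 passed the filter on low counts, which left 14330 genes in the test. The RNA came from 4 tumours of MMTV-Neu mice, all of the strain FVB, with 2 libraries labelled WT (AXL+/+) and 2 labelled AXL KO (AXL-/-). The Neu transgene, a form of the receptor gene Erbb2 driven by a mammary tumour virus promoter, was common to all 4 tumours, so the groups differed by label in Axl alone. That promoter is active mainly in mammary epithelium, and Axl encodes a cell-surface tyrosine kinase. The sources used here give neither age nor number of animals, and the labels do not say that the libraries of a group came from separate mice, so a p-value reflects only how these libraries vary, which may be technical.

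Counts in genes came to between 18929743 and 33131739 per library. Axl had 1321 and 673 counts in WT and 89 and 163 in AXL KO, 10.1-fold lower by the fit, which matched the labels. The 15 luminal epithelial markers, among them Epcam, Krt8 and Krt18, were all detected and summed to between 4293 and 4989 CPM, which are counts scaled by library size. Erbb2 was at 10970 and 12590 CPM in WT and 19780 and 19980 CPM in AXL KO, so both knockout tumours were above both WT tumours. Its fitted log2 difference was 0.75 (unadjusted p = 0.502 by edgeR's quasi-likelihood test), and its part in the result was not tested. WT replicate 2 stood apart from the other 3 libraries in several gene groups, including the one described here, so list medians and the differences of many single genes are also given without it. The description of AXL KO replicate 2 carries another prefix than those of the other 3 libraries, so the values without that library are those within 1 prefix.

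Cells that enter mitosis activate cyclin-dependent kinase 1 with A- and B-type cyclins, and Polo-like and Aurora kinases then build the spindle. The spindle checkpoint holds the anaphase-promoting complex in check until every kinetochore is attached, after which the complex and its activator CDC20 mark cyclin B and securin for destruction. Most genes of this machinery are transcribed late in the cell cycle by MYBL2, FOXM1 and the MuvB complex, so their RNA in a bulk tumour is widely used as a gauge of dividing cells. In bulk RNA, fewer dividing cells and less of each transcript per dividing cell cannot be told apart.

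All 39 genes had a lower fitted level in the AXL KO tumours, with a median log2 difference of −0.83 (1.78-fold), and none of them passed the test. Single genes ran from −1.58 for the mitotic kinesin gene Kif20a to −0.21 for the checkpoint gene Bub3. Of all tested genes 50.3% had a negative difference, and their median was −0.00195. By edgeR's quasi-likelihood test, adjusted by Benjamini-Hochberg over the whole table, 0 of the 39 passed an adjusted p of 0.05 (each had an adjusted p of 0.9997), beside 0% of all genes. At an unadjusted p under 0.05 there were also 0 of the 39, beside 2.19% of all genes, and the smallest were 0.0513 for Cdc20 and 0.0515 for Plk1. DESeq2 called 0 of the 39 after adjustment and 0.112% of all genes, and put 14 of the 39 at an unadjusted p under 0.05, beside 3.5% of all genes. Limma-voom called 0 of the 39 and 0% of all genes, and put 0 of the 39 at an unadjusted p under 0.05, beside 1.99% of all genes. With 2 libraries against 2, the smallest two-sided p of an exact permutation test of a single gene would be 1 in 3, so non-overlap was counted instead. The 2 knockout levels were both under the 2 WT levels for 14 of the 39 genes and over them for 0, where 14.5% of all tested genes were under.

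The levels separated 1 WT tumour from the other 3 libraries more than they separated the groups. WT replicate 2 was the highest library for all 39 genes, where it was the highest for 34.6% of all tested genes. AXL KO replicate 1 was the lowest library for 38 of the 39, with Bub3 as the exception. On the log2(CPM + 0.5) scale the mean deviation of the 39 genes from the 4-library mean was −0.20 in WT replicate 1, 0.94 in WT replicate 2, −0.61 in AXL KO replicate 1 and −0.13 in AXL KO replicate 2, so AXL KO replicate 2 lay slightly above WT replicate 1. Summed over the 39 genes, the level was 1438 and 3191 CPM in WT and 1112 and 1581 CPM in AXL KO. The gap between the WT tumours was larger than the difference between group means for 34 of the 39 genes (87.2%), as it was for 73.5% of all tested genes. Without WT replicate 2 the median log2 difference was −0.15, and 32 of the 39 genes were still negative, where 47.8% of all genes were. Without WT replicate 1 the median was −1.22, and 3 of the 39 passed edgeR's adjusted p of 0.05, beside 1.51% of all genes. These were Nusap1 on chromosome 2 and Kif20a and Cdc25c on chromosome 18, fitted with the lone WT library assumed to vary like the AXL KO libraries. Over all tested genes of these chromosomes, WT replicate 2 was above WT replicate 1 by a median log2 difference of 0.42 and 0.73. Without WT replicate 2, 14 of the 39 genes had all AXL KO levels under the remaining WT level, a share near the 33.7% of all genes that did. The count was 39 beside 38.8% without WT replicate 1, 15 beside 26.8% without AXL KO replicate 1 and 39 beside 31.4% without AXL KO replicate 2. Leaving out AXL KO replicate 1 gave the 39 genes a median log2 difference of −0.60, beside −0.018 over all tested genes. Leaving out AXL KO replicate 2 gave −1.05, beside −0.031.

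**Figure D1:**
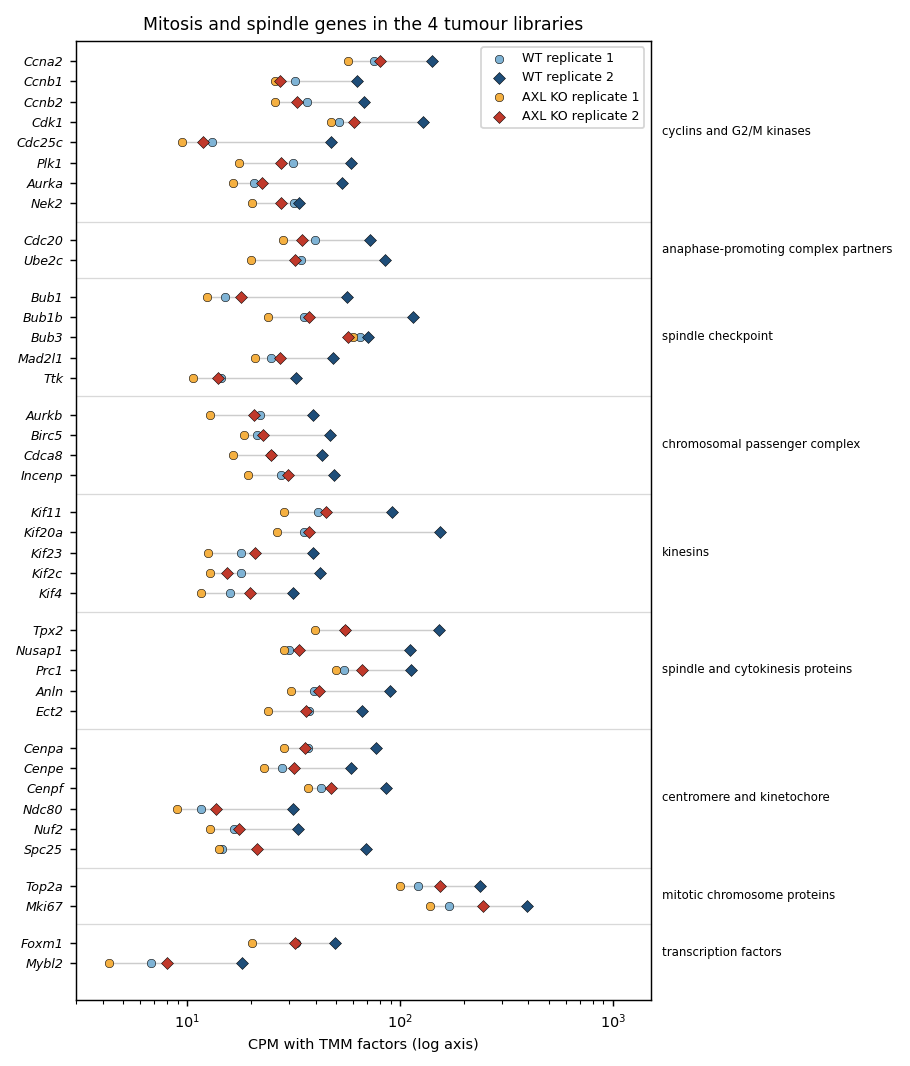
Level of each mitosis or spindle gene in CPM (log axis) in the 4 libraries, grouped by role, with WT in blue, AXL KO in orange and red, and a grey line from the lowest to the highest library. WT replicate 2 is the rightmost point in all 39 rows and AXL KO replicate 1 the leftmost in 38.

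**Figure D2:**
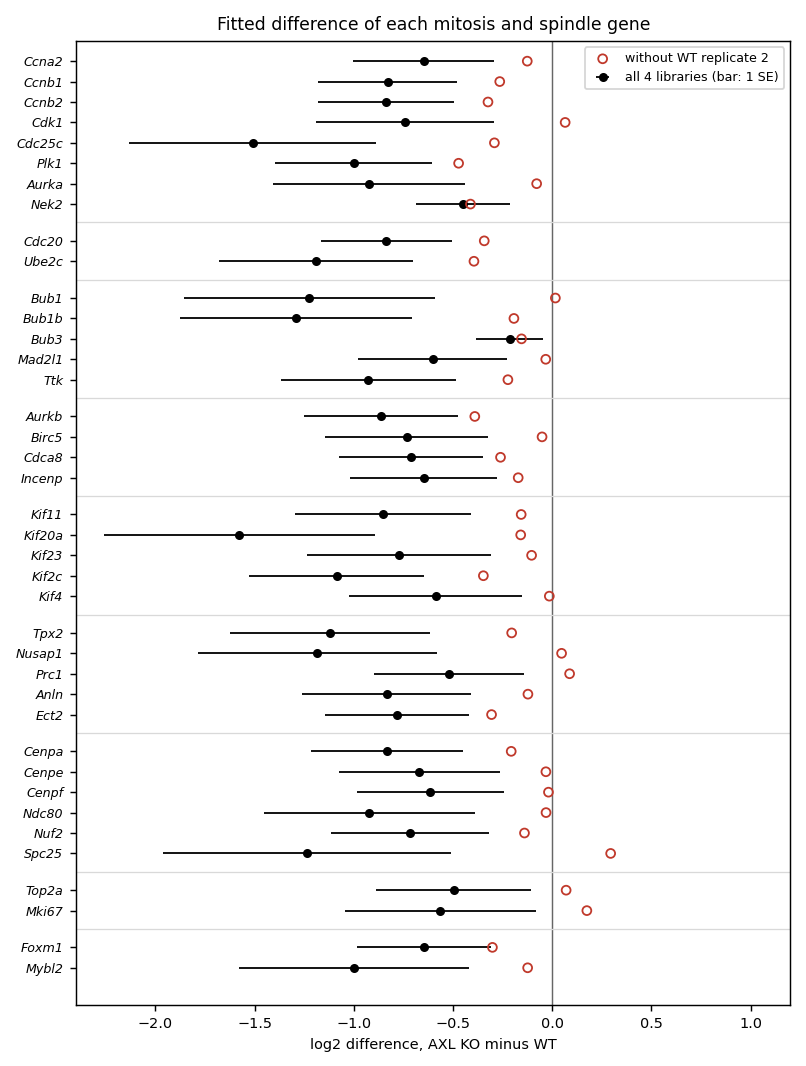
Fitted log2 difference between AXL KO and WT for each gene (black points, bars 1 standard error) and the same fit without WT replicate 2 (open red circles). All 39 black points lie below 0, and the open circles lie closer to 0, with 7 above it.

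The promoters of the 39 genes were read for the motifs that late cell cycle genes are known for. These are the cell cycle genes homology region (CHR), searched here as TTTGAA or TTCGAA, which the MuvB complex contacts, and the CCAAT box, which the factor NF-Y binds. Both strands were searched in RefSeq windows of 250 bases before to 50 after each start, on build GRCm38.p6. Of the 39 genes 32 had a window in the table, 35 windows in all, since Bub3, Ect2 and Prc1 had a pair each. Aurkb, Ccna2, Cdc25c, Foxm1, Incenp, Kif20a and Tpx2 had none. In 25 of the 35 windows the bases after the start matched a GENCODE M21 transcript of the gene, and the starts of the others are less certain. A CHR was present in 27 of the 35 windows (77.1%), where 19.2% of all 32851 windows and 17.6% of those of protein-coding genes held one. A CCAAT box was present in 27 windows (77.1%) against 37.4% of all, and 2 or more in 20 (57.1%) against 11.7%. Both motifs stood together in 24 windows (68.6%) against 7.52%. Among all the sites found in these windows, 1 CHR overlapped 1 CCAAT box. Neither motif was in the windows of Birc5, Mad2l1, Mybl2, Nuf2 or Nusap1, which says only that these letters are not there. The genes were chosen by name for mitosis, so the shares above describe the chosen list. Any link between the motifs and the levels in the 4 libraries was not tested.

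Stretches of 140 bases, from 110 before to 30 after the start, are shown for 6 genes chosen by hand and for Bub3 and Nek2. The 6 genes all held both motifs and were 1.82 to 3.72 times as high in WT replicate 2 as in WT replicate 1. Bub3 and Nek2 had the smallest gaps between those libraries. This choice does not represent the list, as Nusap1 held neither motif in its window and had a ratio of 3.7. Capitals mark CHR and CCAAT matches, in either orientation (TTCAAA and ATTGG are the reverse complements of TTTGAA and CCAAT). The stretches lie on GRCm38.p6 at chr9:70421525-70421664 (minus strand) for Ccnb2, chr10:69352883-69353022 (minus strand) for Cdk1, chr4:118437314-118437453 (minus strand) for Cdc20, chr2:164769819-164769958 (plus strand) for Ube2c, chr2:127831830-127831969 (minus strand) for Bub1, chr9:83834579-83834718 (plus strand) for Ttk, chr7:131560260-131560399 (plus strand) for the first Bub3 start and chr1:191821363-191821502 (plus strand) for Nek2.
Ccnb2 promoter: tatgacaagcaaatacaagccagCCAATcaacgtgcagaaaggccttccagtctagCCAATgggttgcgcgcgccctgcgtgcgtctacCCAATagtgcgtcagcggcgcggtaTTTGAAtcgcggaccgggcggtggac
Cdk1 promoter: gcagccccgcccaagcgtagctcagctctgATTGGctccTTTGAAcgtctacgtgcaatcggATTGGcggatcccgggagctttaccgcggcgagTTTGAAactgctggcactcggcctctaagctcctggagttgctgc
Cdc20 promoter: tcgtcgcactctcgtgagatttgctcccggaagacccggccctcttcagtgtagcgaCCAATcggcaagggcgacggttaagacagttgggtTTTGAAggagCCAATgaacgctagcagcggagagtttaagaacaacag
Ube2c promoter: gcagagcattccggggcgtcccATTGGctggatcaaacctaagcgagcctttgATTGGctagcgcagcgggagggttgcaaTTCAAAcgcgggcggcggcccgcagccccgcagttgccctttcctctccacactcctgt
Bub1 promoter: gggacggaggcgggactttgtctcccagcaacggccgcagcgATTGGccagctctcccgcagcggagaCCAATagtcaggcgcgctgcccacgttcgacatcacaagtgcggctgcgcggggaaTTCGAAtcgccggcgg
Ttk promoter: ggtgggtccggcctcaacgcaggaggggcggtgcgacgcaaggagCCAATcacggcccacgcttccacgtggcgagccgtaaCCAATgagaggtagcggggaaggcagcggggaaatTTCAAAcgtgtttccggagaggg
Bub3 promoter: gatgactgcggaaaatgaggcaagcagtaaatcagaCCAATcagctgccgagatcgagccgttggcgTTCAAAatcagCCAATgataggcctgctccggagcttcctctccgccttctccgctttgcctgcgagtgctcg
Nek2 promoter: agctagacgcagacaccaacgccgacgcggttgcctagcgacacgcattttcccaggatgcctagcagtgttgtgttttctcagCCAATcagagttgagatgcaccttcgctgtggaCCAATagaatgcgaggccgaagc
Ccnb2 held 3 CCAAT boxes and then a CHR just after the start, and Cdk1 held 2 of each. Bub3 held both motifs, as the first 6 genes did, and Nek2 held 2 CCAAT boxes and no CHR.

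The cyclins and kinases that start mitosis had a median log2 difference between AXL KO and WT of −0.83 over 8 genes, and −0.28 (7 of 8 negative) without WT replicate 2. With all 4 libraries, 5 of them had both AXL KO levels under both WT levels, beside 14.5% of all tested genes. The same share stands beside such counts in the groups below. Plk1, the Polo-like kinase gene (ENSMUSG00000030867, chromosome 7, 122159439 to 122169873, plus strand, in GENCODE M21 on GRCm38), was at 31.3 CPM in WT replicate 1, 58.95 CPM in WT replicate 2, 17.4 CPM in AXL KO replicate 1 and 27.6 CPM in AXL KO replicate 2. Both knockout tumours were thus below both WT tumours, and the log2 difference was −1.0 ± 0.40 (SE), with −0.47 left without WT replicate 2. Ccnb2, a B-type cyclin gene, was at 36.7 and 67.9 CPM in WT and 25.9 and 32.7 CPM in AXL KO. Its log2 difference was −0.84 ± 0.34 (SE), and −0.32 without WT replicate 2. Ccnb1, the other mitotic B-type cyclin gene, was at 31.9 and 62.6 CPM in WT and 25.8 and 27.4 CPM in AXL KO, so the knockout tumours lay close to each other and below both WT tumours, and the difference went from −0.83 to −0.26 without WT replicate 2. Ccna2, which encodes cyclin A2 and is also needed in S phase, was at 74.95 and 140.4 CPM in WT and 56.9 and 80.4 CPM in AXL KO, and Cdk1, the kinase gene itself, at 51.4 and 128 CPM in WT and 47.1 and 60.5 CPM in AXL KO. For both genes AXL KO replicate 2 was above WT replicate 1, so the groups overlapped, and without WT replicate 2 the log2 differences were −0.13 and 0.065. Cdc25c, whose product removes the inhibitory phosphates from CDK1, was at 13 and 47.5 CPM in WT and 9.4 and 11.8 CPM in AXL KO. Its difference (−1.51 ± 0.62 (SE)) was among the largest with all libraries and was −0.29 without WT replicate 2, which had 3.65 times the level of WT replicate 1. Nek2, a centrosome kinase gene, was at 31.8 and 33.5 CPM in WT and 20.2 and 27.6 CPM in AXL KO. It differed from the rest of the group in that the WT tumours were nearly equal, and its log2 difference of −0.45 ± 0.24 (SE) was −0.41 without WT replicate 2. Aurka, which encodes the spindle pole kinase Aurora A, had overlapping groups and a difference of −0.92, and −0.079 without that library.

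Both partners of the anaphase-promoting complex had groups that did not overlap, with a median of −1.01, and of −0.37 (2 of 2 negative) without WT replicate 2. Of all tested genes 14.5% had both AXL KO levels under both WT levels. Cdc20, the activator that the checkpoint restrains (ENSMUSG00000006398, chromosome 4, 118432901 to 118437352, minus strand), was at 39.7 CPM in WT replicate 1, 72.1 CPM in WT replicate 2, 28.1 CPM in AXL KO replicate 1 and 34.5 CPM in AXL KO replicate 2. Its log2 difference of −0.84 ± 0.33 (SE) had the smallest p of the 39 genes, 0.0513 unadjusted and 0.9997 adjusted by edgeR, and was −0.34 without WT replicate 2. Ube2c, the ubiquitin-conjugating enzyme gene that works with the complex, was at 34.2 and 84.4 CPM in WT and 19.98 and 31.9 CPM in AXL KO, with a difference of −1.19 ± 0.49 (SE), and −0.39 without WT replicate 2. The Ube2c exons overlap those of Tnnc2 on the opposite strand over 22.8% of their length, and because the sources used here do not state whether the counting used strand, reads there are uncertain. The 17 core subunits and other partners of the complex had a median of −0.13, and 12 of the 17 were negative. Their median was −0.012 (9 of 17 negative) without WT replicate 2. The smallest p-values among these belonged to Cdc23 (−0.66), Ube2s (−0.30) and Fzr1 (−0.28). Exons of Cdc23 overlap those of Kif20a on the opposite strand over 1271 bases, so its counts are uncertain. Cdc23 lies on chromosome 18, where the median difference over all 370 tested genes was −0.46.

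In the spindle checkpoint, 4 of 5 genes were far higher in WT replicate 2 than elsewhere, and Bub3 was not. The median of the 5 was −0.93, and −0.15 (4 of 5 negative) without that library. Bub1b, which encodes the checkpoint protein BUBR1, was at 35.1 CPM in WT replicate 1, 115 CPM in WT replicate 2, 23.98 CPM in AXL KO replicate 1 and 37.3 CPM in AXL KO replicate 2. WT replicate 2 was 3.28 times as high as WT replicate 1, and AXL KO replicate 2 was above WT replicate 1, so the difference of −1.29 ± 0.59 (SE) was −0.19 without WT replicate 2. Ttk, the gene of the kinase MPS1 that recruits the checkpoint proteins, was at 14.4 and 32.5 CPM in WT and 10.6 and 13.98 CPM in AXL KO, a difference of −0.93 ± 0.44 (SE) with groups that were narrowly apart, and −0.22 without WT replicate 2. Bub3, a partner of BUB1 and BUBR1 with roles outside mitosis, was at 64.95 and 70.4 CPM in WT and 60.03 and 56.6 CPM in AXL KO. Its 4 libraries were within a narrow range, the knockout tumours were both lower, and the log2 difference was −0.21 ± 0.17 (SE), and −0.15 without WT replicate 2. Bub1, the kinetochore kinase gene, had a difference of −1.23 that became 0.016 without WT replicate 2. Mad2l1, which encodes the inhibitor MAD2, went from −0.60 to −0.033.

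The 4 genes of the chromosomal passenger complex, which corrects faulty attachments and steers cytokinesis, had a median of −0.72, and of −0.22 (4 of 4 negative) without WT replicate 2. Aurkb, its kinase Aurora B, was at 21.9 CPM in WT replicate 1, 38.7 CPM in WT replicate 2, 12.8 CPM in AXL KO replicate 1 and 20.5 CPM in AXL KO replicate 2, the only one of the 4 whose groups did not overlap (−0.86 ± 0.39 (SE)). Birc5, which encodes survivin, was at 21.3 and 47.02 CPM in WT and 18.4 and 22.6 CPM in AXL KO, and Incenp, the scaffold, at 27.5 and 48.95 CPM in WT and 19.2 and 29.5 CPM in AXL KO. In both, 1 knockout tumour was above WT replicate 1. Cdca8, which encodes borealin, had a difference of −0.71, and without WT replicate 2 the 4 genes ran from −0.39 for Aurkb to −0.051 for Birc5.

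The kinesin motors had a median of −0.85, and of −0.16 (5 of 5 negative) without WT replicate 2. With all 4 libraries, Kif20a was the farthest from 0 of all 39 genes. Kif20a, a motor of the central spindle (ENSMUSG00000003779, chromosome 18, 34624613 to 34633277, plus strand), was at 35.4 CPM in WT replicate 1, 154 CPM in WT replicate 2, 26.3 CPM in AXL KO replicate 1 and 37.1 CPM in AXL KO replicate 2. WT replicate 2 was 4.34 times as high as WT replicate 1 and the other 3 libraries were close together, so the difference of −1.58 ± 0.68 (SE) was −0.16 without WT replicate 2. Its exons overlap those of Cdc23 on the opposite strand over 29.3% of their length, so its counts are uncertain. Such overlaps also cover 15.1% of the exons of Kif4, 12.7% of Cdc25c, 12.5% of Ccna2 and 11.1% of Prc1. Kif2c, a microtubule-depolymerising motor, was at 17.9 and 41.8 CPM in WT and 12.7 and 15.3 CPM in AXL KO, and was the only kinesin here whose groups did not overlap (−1.09 ± 0.44 (SE), and −0.35 without WT replicate 2). Kif11, which pushes the spindle poles apart, was at 40.9 and 91.5 CPM in WT and 28.5 and 44.8 CPM in AXL KO, so AXL KO replicate 2 was above WT replicate 1, and its difference went from −0.85 to −0.16 without WT replicate 2. Kif23, of the cytokinesis complex centralspindlin, and Kif4, a chromosome-bound motor, had overlapping groups and differences of −0.77 and −0.59, and −0.10 and −0.015 without that library. The 8 other mitotic kinesin genes had a median of −0.86 and 8 negative differences, which became −0.16 (6 of 8 negative) without WT replicate 2. Among them Kif22, Kif14 and Kif18a had the smallest p-values (−1.04, −0.94 and −0.95). None of the 8 passed edgeR after adjustment, and 0 had an unadjusted p under 0.05, beside 2.19% of all tested genes. That share also stands beside such counts in the lists below.

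Spindle assembly and cytokinesis genes had a median of −0.84, and of −0.12 (3 of 5 negative) without WT replicate 2. Tpx2, which activates Aurora A on the spindle, was at 54.8 CPM in WT replicate 1, 152 CPM in WT replicate 2, 39.7 CPM in AXL KO replicate 1 and 55.2 CPM in AXL KO replicate 2. AXL KO replicate 2 was nearly level with WT replicate 1, and the difference of −1.12 ± 0.50 (SE) was −0.20 without WT replicate 2. Ect2, the exchange factor that triggers the contractile ring, was at 37.1 and 66.02 CPM in WT and 23.8 and 36.1 CPM in AXL KO and was the only one of these 5 genes whose groups did not overlap (−0.78 ± 0.36 (SE), and −0.31 without WT replicate 2). Prc1, which bundles central spindle microtubules, was at 54.6 and 112 CPM in WT and 49.9 and 66.04 CPM in AXL KO, and without WT replicate 2 its difference turned from −0.52 to 0.087. Nusap1, a microtubule-stabilising protein gene, turned from −1.18 to 0.047, and Anln, which encodes the ring protein anillin, went from −0.84 to −0.12. Of 26 further spindle and cytokinesis genes 25 were negative (median −0.68), and the median was −0.10 (18 of 26 negative) without WT replicate 2. With all libraries 1 of the 26 had an unadjusted p under 0.05 by edgeR, beside 2.19% of all tested genes, and 0 passed after adjustment. That gene was Racgap1, the centralspindlin partner of Kif23, at 61.6 and 116 CPM in WT and 35.1 and 52.8 CPM in AXL KO (log2 difference −1.01, edgeR unadjusted p = 0.0415, and −0.48 without WT replicate 2). Gtse1 and Tacc3 came next by p, at −1.22 and −0.88.

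Centromere and kinetochore genes had a median of −0.78, which went to −0.032 (5 of 6 negative) without WT replicate 2. Cenpa, the histone H3 variant gene of centromeres, was at 36.9 CPM in WT replicate 1, 76.96 CPM in WT replicate 2, 28.4 CPM in AXL KO replicate 1 and 35.5 CPM in AXL KO replicate 2, the only one of the 6 whose groups did not overlap (−0.83 ± 0.38 (SE), and −0.21 without WT replicate 2). Cenpf, a large protein of the outer kinetochore, was at 42.5 and 86.02 CPM in WT and 36.8 and 47.1 CPM in AXL KO, with AXL KO replicate 2 above WT replicate 1, and went from −0.61 to −0.019 without WT replicate 2. Spc25, a subunit of the NDC80 complex that grips microtubules, was at 14.5 and 69.2 CPM in WT and 14.1 and 21.4 CPM in AXL KO, and its difference turned from −1.24 to 0.29 without WT replicate 2. Its partners Ndc80 and Nuf2 and the kinetochore motor Cenpe had differences of −0.92, −0.72 and −0.67, all with overlapping groups, and of −0.031, −0.14 and −0.032 without that library. Of 32 other kinetochore and centromere genes 31 were negative (median −0.55), and the median was 0.025 (14 of 32 negative) without WT replicate 2. Mad1l1, which anchors MAD2, was the 1 gene of the 32 with an unadjusted p under 0.05, beside 2.19% of all tested genes. It was at 29.6 and 36.3 CPM in WT and 20.3 and 22.9 CPM in AXL KO (edgeR unadjusted p = 0.0394, adjusted 0.9997, log2 difference −0.61, and −0.45 without WT replicate 2), and Spdl1 and Oip5 followed at −0.61 and −1.23. Oip5 exons overlap those of Nusap1 on the opposite strand over 172 bases, so reads there are uncertain. Among 19 cohesin, condensin and separase genes 18 were negative (median −0.57), and without WT replicate 2 the median was −0.017 (10 of 19 negative). Pttg1, which encodes the separase inhibitor securin, was at 12.7 and 28.7 CPM in WT and 9.45 and 9.36 CPM in AXL KO (log2 difference −1.14, edgeR unadjusted p = 0.0456, and −0.44 without WT replicate 2), and Ncaph2 and Espl1 were at −0.74 and −1.04. After adjustment 0 genes of these lists passed.

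The 2 proteins of mitotic chromosomes, both common proliferation markers, had a median of −0.53 and overlapping groups. Mki67, which coats mitotic chromosomes and is the clinical Ki-67 antigen, was at 169 CPM in WT replicate 1, 395 CPM in WT replicate 2, 138 CPM in AXL KO replicate 1 and 243 CPM in AXL KO replicate 2. Top2a, the topoisomerase that untangles sister chromatids, was at 120.5 and 236 CPM in WT and 99.2 and 154 CPM in AXL KO. In both, AXL KO replicate 2 was well above WT replicate 1, and the differences of −0.56 ± 0.48 (SE) and −0.50 ± 0.39 (SE) became 0.17 and 0.070 without WT replicate 2. The transcription factor gene Foxm1 was at 32.2 and 49.5 CPM in WT and 20.1 and 32.03 CPM in AXL KO, with AXL KO replicate 2 nearly level with WT replicate 1 and AXL KO replicate 1 lower (−0.65 ± 0.34 (SE), and −0.30 without WT replicate 2). Mybl2, which encodes the MuvB partner B-MYB, was at 6.78 and 18.01 CPM in WT and 4.27 and 8.04 CPM in AXL KO, with overlapping groups, and its difference went from −1.0 to −0.12. The 21 genes of the MuvB core, NF-Y and the RB and E2F families had a median of −0.14, 1 of them (Rb1, −0.24) below in both knockout tumours and 1 (E2f6, 0.43) above, and E2f8 was at −0.53. Their median was 0.031 (9 of 21 negative) without WT replicate 2. Of 12 other G2/M regulators 11 were negative (median −0.60), and the median was −0.13 (7 of 12 negative) without WT replicate 2. The smallest p was that of Bora, the activator of PLK1, at 6.87 and 10.7 CPM in WT and 4.59 and 4.38 CPM in AXL KO (log2 difference −0.97, edgeR unadjusted p = 0.0412, and −0.62 without WT replicate 2), then Cdc25b at −1.57 and Melk at −0.66. None passed after adjustment.

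Per kilobase of annotated exon, which allows levels to be set between genes, the 39 ran from 2 CPM per kb for Mybl2 to 26.6 CPM per kb for Ccnb2, as means over the 4 libraries. Mki67 and Cdc20 followed Ccnb2 at 23.5 and 23.3 CPM per kb, and Ndc80 and Kif23 were next to Mybl2 at 2.52 and 2.86. The exons are those of GENCODE M21 merged over isoforms, which may not be the set the counts were made on.

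Genes of DNA replication, the other widely used mark of cycling cells, had a median closer to 0. Of 38 replication genes 34 were negative, with a median of −0.19, 1 (Pole2, −0.46) with groups that did not overlap, 0 at an unadjusted p under 0.05 and 0 passing edgeR after adjustment. Prim2 and Rrm1 were at −0.57 and −0.37. The replication median turned to 0.15 (5 of 38 negative) without WT replicate 2 and to 0.030 without AXL KO replicate 1. The mean deviation of the mitosis genes minus that of the replication genes was 0.012 and 0.54 in WT and −0.26 and −0.29 in AXL KO, so on this relative scale both knockout tumours lay below both WT tumours. The same value against the luminal epithelial markers was −0.18 and 0.78 in WT and −0.46 and −0.14 in AXL KO, where the groups overlapped. No test was made of either. The 14 G1 cyclins, G1 kinases and CDK inhibitors had a median of −0.24, and of 0.056 (6 of 14 negative) without WT replicate 2. Cdkn1a, which encodes the cell cycle inhibitor p21, was at 20.4 and 74.7 CPM in WT and 17.04 and 16.1 CPM in AXL KO, so this inhibitor, like the mitosis genes, was highest in WT replicate 2. Cdkn2d and Cdkn1b were at −0.66 and −0.63.

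Other groups of genes also stood apart in WT replicate 2, and their part in the result was not tested. The summed level of the 18 hypoxia and HIF targets was 4404 and 8156 CPM in WT and 5106 and 3487 CPM in AXL KO, and that of the 16 interferon-stimulated genes 2120 and 194 CPM in WT and 2759 and 3121 CPM in AXL KO, so the former were highest and the latter lowest in WT replicate 2. The 10 T and NK cell markers summed to 44.6 and 4.24 CPM in WT and 23.98 and 38.8 CPM in AXL KO, lowest in WT replicate 2, and the 10 macrophage markers to 544 and 326 CPM in WT and 415 and 555 CPM in AXL KO. The 10 fibroblast markers summed to 726 and 1073 CPM in WT and 353 and 969 CPM in AXL KO, the 10 endothelial markers to 128 and 124 CPM in WT and 108 and 152 CPM in AXL KO, the 8 adipocyte markers to 107 and 215 CPM in WT and 156 and 178 CPM in AXL KO and the 7 basal and myoepithelial markers to 30.3 and 59.1 CPM in WT and 19.2 and 34.9 CPM in AXL KO. For the 15 luminal epithelial markers the sums were 4671 and 4989 CPM in WT and 4352 and 4293 CPM in AXL KO. The share of all counted alignments outside genes was highest in AXL KO replicate 1 (8.11%), the lowest library for the mitosis genes, and ran from 5.28% to 6.85% in the other 3.

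**Figure D3:**
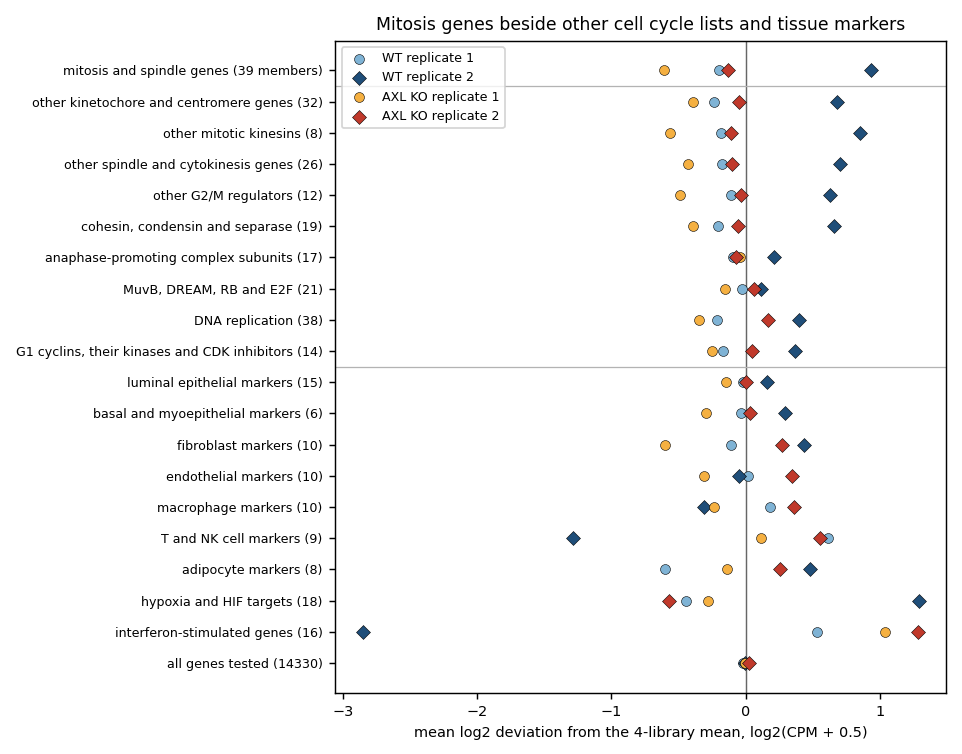
Mean log2 deviation of each gene list from the 4-library mean, on the log2(CPM + 0.5) scale, with 1 point per library and the number of tested genes in brackets. The mitosis genes run from −0.61 in AXL KO replicate 1 to 0.94 in WT replicate 2, and the hypoxia targets are also highest and the interferon-stimulated genes lowest in WT replicate 2.

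The size of the gap between the WT tumours went with the chromosome on which a mitosis gene lies. Over all tested genes of a chromosome, the median log2 difference between WT replicate 2 and WT replicate 1 was 0.42 on chromosome 2 (1157 genes), 0.37 on chromosome 15 (549 genes) and 0.73 on chromosome 18 (370 genes). On the other 17 chromosomes it ran from −0.11 to 0.066. Between the knockout tumours the chromosome medians ran only from −0.085 to 0.043. Chromosome 2 holds 8 of the 39 genes (Aurka, Bub1, Bub1b, Mybl2, Nusap1, Spc25, Tpx2 and Ube2c), chromosome 18 holds Cdc25c and Kif20a, and chromosome 15 holds none. These 10 genes had a median WT gap of 1.76 (3.4-fold, from 1.29 to 2.22), and the other 29 a median of 0.97 (1.96-fold, from 0.070 to 1.4). The median log2 difference between AXL KO and WT was −1.21 in the 10 genes and −0.73 in the 29. Among the latter, Kif2c was the lowest at −1.09. With the median of its chromosome taken off each gene, the median WT gap was 1.19 in the 10 genes and 1.01 in the 29, and the median difference between groups was −1.0 and −0.75. Kif20a then had a difference of −1.12 in place of −1.58, and Cdc25c one of −1.05 in place of −1.51. Over all 39 genes the median was −0.82 with the chromosome medians taken off, beside −0.83 as fitted. The 29 genes lie on chromosomes whose median difference between groups ran only from −0.013 to 0.080, so this list median could move little. This split by chromosome was chosen after the values were seen, and what sets the chromosome medians apart was not tested. By chromosome, the all-gene median log2 difference between AXL KO and WT was −0.21 (chromosome 2), −0.26 (chromosome 15) and −0.46 (chromosome 18). Genes of the pathway lists were not split in this way. Those named above may lie on these chromosomes, as Cdc23 (chromosome 18) and Oip5 (chromosome 2) do.

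**Figure D4:**
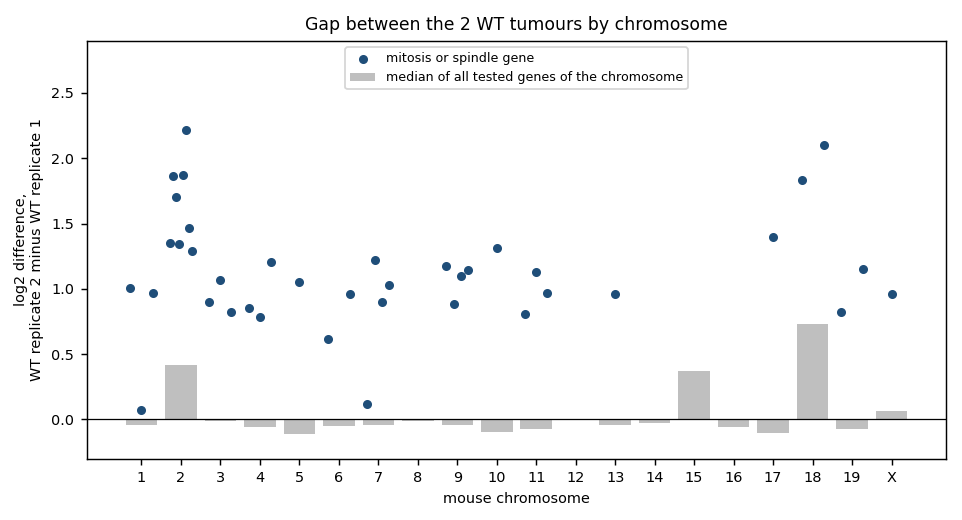
Log2 difference between WT replicate 2 and WT replicate 1, on the log2(CPM + 0.5) scale, by mouse chromosome. Grey bars are the medians of all tested genes of a chromosome and blue points the 39 mitosis and spindle genes. The bars of chromosomes 2, 15 and 18 stand at 0.42, 0.37 and 0.73, and every blue point on chromosomes 2 and 18 is at 1.29 or above.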

How the data were processed

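The authors deposited 1 file of raw read counts per gene and library, from total RNA of 4 tumours. The submitters' processing notes name DESeq2 1.4.5, HTSeq 0.5.3, TopHat2 2.0.10 and CASAVA 1.8, and build GRCm38, without roles. Annotation release, strand setting and read filters were not given in the sources used here. Groups and replicate numbers came from the sample titles.

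The 5 summary lines per file that name no gene stayed out (outside genes 5.28% to 8.11% of all alignments counted, ambiguous 0.635% to 1.85%, not unique 23.2% to 28.1%). Symbols came from GENCODE M21, which matched 36345 of 38293 identifiers. No pair of libraries repeated each other (chi-square per degree of freedom 30.3 or more). AXL KO was compared with WT over all genes in edgeR 4.0.16 (filterByExpr, TMM, estimateDisp, glmQLFit with legacy=FALSE, glmQLFTest, R 4.3.3), with Benjamini-Hochberg adjustment and 0.05 as the threshold (common dispersion 0.0961). CPM uses TMM factors, which lay between 0.978 and 1.01. SE is the log2 difference divided by the root of F. Lists are described by counts and medians without a test. The fit was checked on simulated counts.

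The members and lists were chosen with earlier results of these data known. Values per library are given, by role, for the 2 members with the highest mean CPM, the one with the smallest p, and each whose groups do not overlap. A few others were chosen after their values were seen. Up to 3 genes by smallest p are named per pathway list. Alternatives were DESeq2 1.42.0 and its size factors, limma-voom (3.58.1), library totals, legacy quasi-likelihood, 2 other low-count filters, the replicate number as a block, and each library left out with the gene set kept.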

Additional observations from a re-analysis of the deposited data

How the results depend on the processing

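With 4 libraries, leaving out WT replicate 2 moved most values. Over the fits that left out 1 library each, the median log2 difference of the 39 genes ran from −1.22 to −0.15, the closest to 0 without WT replicate 2. Genes passing edgeR ran from 0 to 216, and the mitosis genes among them from 0 to 3, the highest of each without WT replicate 1. The count of mitosis genes with all AXL KO libraries below all WT libraries ran from 14 to 39, the highest without WT replicate 1 and without AXL KO replicate 2, where 38.8% and 31.4% of all genes did so, and 14 beside 33.7% without WT replicate 2. The log2 differences that turned positive without WT replicate 2 ran from −1.88 to 0.016 for Bub1, −1.25 to 0.065 for Cdk1, −1.05 to 0.17 for Mki67, −1.84 to 0.047 for Nusap1, −0.95 to 0.087 for Prc1, −1.96 to 0.29 for Spc25 and −0.90 to 0.070 for Top2a. The list medians that turned ran from −0.98 to 0.12 for mitotic chromosome proteins, −0.49 to 0.15 for DNA replication, −0.42 to 0.056 for G1 genes, −0.24 to 0.031 for MuvB, RB and E2F genes and −0.92 to 0.025 for other kinetochore genes. The DNA replication median also turned without AXL KO replicate 1. The lone library of a group was assumed to vary like the other group, and the cause of each turn was not tested. The scalings, filters and tools kept all 39 differences negative, with medians from −0.85 to −0.71 and 0 of the 39 past adjustment. DESeq2 called 16 genes in all. Without a low-count filter 3 of the 39 had an unadjusted p under 0.05 and 2.3% of all genes. Without the members on chromosomes 2 and 18, 12 of 29 had both AXL KO libraries below both WT libraries, beside 14.5% of tested genes on all chromosomes. This alternative was chosen after seeing the data. With the replicate number as a block (replicate block) the median was −0.75, 0 genes passed, and 22 of the 39 had an unadjusted p under 0.05 where 3.98% of all genes did. Same-numbered tumours deviated with a correlation of −0.046 over all tested genes. With so few libraries this value cannot show whether the numbers pair the tumours.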
